A study of Mus musculus with 8 samples.

Results

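Collagen genes were examined in gene counts from RNA-seq of AML-12 cells, an established line of mouse hepatocytes that expresses transforming growth factor alpha from a transgene. The members were the rows whose symbol has the form of a collagen chain gene (Col, a type number, a and a chain number), which gave 44 of the 21983 gene symbols in the table. The 8 libraries fall into 2 groups. Libraries 1 to 4 of GM47544 came from AML-12 cells whose genotype is given as GM47544 overexpressed, and libraries 1 to 4 of pLKO.1 came from AML-12 cells labelled as wild-type controls with pLKO.1, a lentiviral vector backbone. Both groups grew in DMEM with fetal bovine serum and antibiotics. The titles name no vector for the GM47544 libraries, and Gm47544 itself was not analysed here, so its level does not check the labels. The labels are silent on whether replicates are separate cultures, so a p-value here measures spread among libraries, possibly of a technical kind.

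Collagens are secreted or membrane proteins built from chains that wind around each other in a triple helix, and many types need chains from different genes. Fibrillar collagens form the fibrils of connective tissue, and FACIT collagens (fibril-associated collagens with interrupted triple helices) sit on the surface of those fibrils. Type IV collagen forms the sheet-like network of basement membranes, and type VI forms beaded microfibrils around cells. Multiplexins, types XV and XVIII, carry sugar chains and lie in or near basement membranes. In the liver, stellate cells and fibroblasts are the main source of fibrillar collagen, while hepatocytes are known as a source of type XVIII.

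Total counts lay between 11016907 and 17338310 in GM47544 libraries and between 12256376 and 18965662 in pLKO.1 libraries. In a principal component analysis the first component held 83.5% of the variance and separated the groups, and pLKO.1 replicate 3 stood apart at 17.7, against -46.0 to -39.4 in GM47544 libraries and 45.7 to 56.6 in the other pLKO.1 libraries. Of 11520 genes tested with edgeR's quasi-likelihood test, 64.4% were called at an adjusted p under 0.05. The GM47544 libraries were higher for 32.3% and lower for 32.1% of the genes tested.

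Of the 44 collagen genes, 37 had at least 1 count, 17 had enough counts to be tested and 7 had no count in any library. Among the 17, 11 rose in GM47544 libraries and 1, Col4a4, fell, beside 32.3% and 32.1% of all genes tested, and the median log2 fold change was 1.21, against 0.000406 over all genes tested. A change of at least 2-fold was reached by 10 of the 11 that rose and by Col4a4, where 11.5% of all genes tested were called at least 2-fold higher and 9.02% at least 2-fold lower. All 4 GM47544 libraries were above all 4 pLKO.1 libraries for the 11 that rose and below them for Col4a4, where 28.5% and 27.5% of all genes tested did so. A low gene could pass the filter through the group in which it was high, so these counts describe the 17 genes and not the 44. Without pLKO.1 replicate 3, 19 collagen genes were tested, 12 rose and 2 fell, beside 38.7% of all genes tested in that fit in each direction. In bulk RNA, fewer cells expressing a gene and less of its RNA per cell cannot be told apart.

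**Figure D1:**
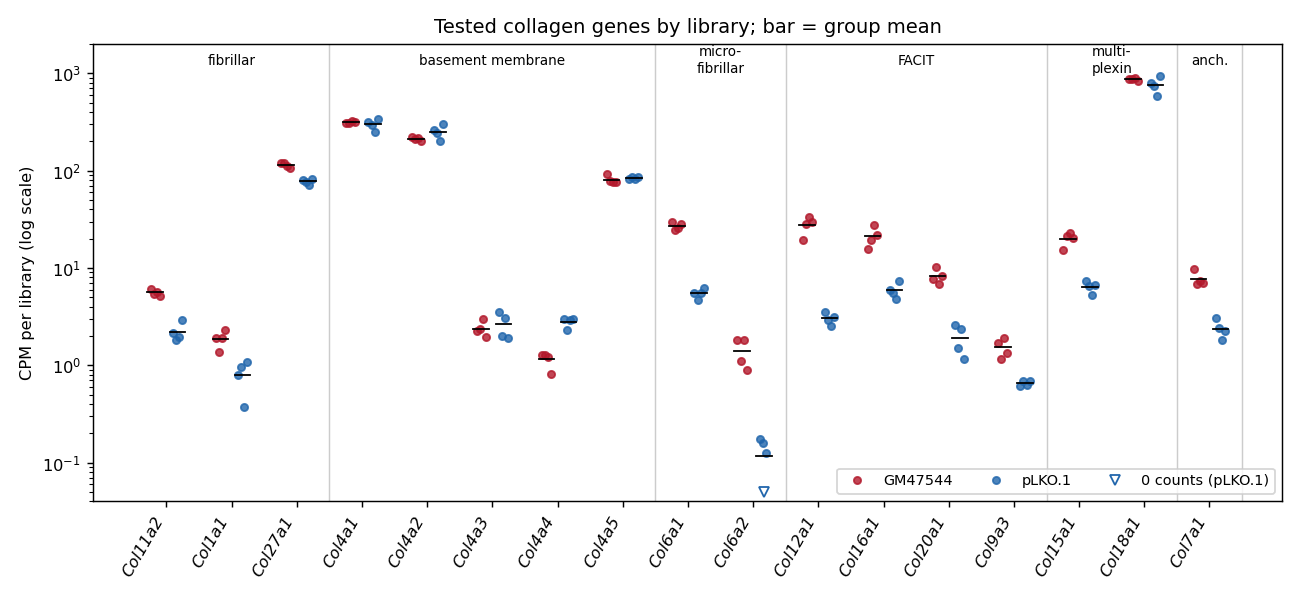
Level of each of the 17 tested collagen genes in CPM (counts per 1000000 counts of the scaled library, log axis), by structural class, with 1 point for each of the 4 GM47544 and 4 pLKO.1 libraries. The groups do not overlap for Col6a1, Col12a1 or Col4a4, and they overlap for Col4a1, Col4a2, Col4a3, Col4a5 and Col18a1.

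Both tested microfibrillar genes, of 6 in the class, rose, where 32.3% of all genes tested did. Col6a1 and Col6a2 encode the alpha 1 and alpha 2 chains of type VI collagen, which assemble with an alpha 3 chain or a relative of it. Col6a1 (chromosome 10, 76708792 to 76726168, minus strand, GENCODE M21 on GRCm38) had 29.4, 24.5, 25.9 and 28.6 CPM in GM47544 libraries, against 5.57, 4.72, 5.50 and 6.22 CPM in pLKO.1 libraries. Every GM47544 library was above every pLKO.1 library, and the log2 fold change was 2.30 ± 0.140 (SE, edgeR adjusted p = 1.62e-07). Col6a2 (chromosome 10, 76595762 to 76623630, minus strand) was far lower, with 21, 20, 21 and 12 counts in GM47544 libraries, against 2, 3, 2 and 0 counts in pLKO.1 libraries. The groups did not overlap, the summed counts of 74 in GM47544 libraries and 7 in pLKO.1 libraries gave a ratio of 11.4 after scaling (95% exact interval 5.26 to 29.3), and the fitted log2 fold change was 3.44 ± 0.514 (SE, edgeR adjusted p = 1.00e-04). Chains that complete type VI were scarce: Col6a3 had 4 counts in GM47544 and 3 in pLKO.1 libraries, Col6a4 had 1 in GM47544 and 0 in pLKO.1 libraries, Col6a6 had 2 in GM47544 and 1 in pLKO.1 libraries, and Col6a5 had none.

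All 4 tested FACIT genes, of 9 in the class, rose, where 32.3% of all genes tested did. Col22a1, a FACIT gene that missed the filter, went the other way, with 3 counts in GM47544 and 33 in pLKO.1 libraries. Col12a1, which encodes type XII collagen (chromosome 9, 79598991 to 79718831, minus strand), had 19.3, 28.1, 33.0 and 29.4 CPM in GM47544 libraries, against 3.54, 2.95, 2.56 and 3.15 CPM in pLKO.1 libraries. It was 9.06-fold higher in GM47544 libraries, a log2 fold change of 3.18 ± 0.192 (SE, edgeR adjusted p = 1.57e-07). Even the lowest GM47544 library lay far above the highest pLKO.1 library. Col16a1, the chain of type XVI collagen (chromosome 4, 130047840 to 130099283, plus strand), had 15.6, 19.5, 27.9 and 21.7 CPM in GM47544 libraries, against 5.93, 5.58, 4.81 and 7.30 CPM in pLKO.1 libraries. Its log2 fold change was 1.85 ± 0.194 (SE, edgeR adjusted p = 7.37e-06). Col20a1, the chain of type XX collagen (chromosome 2, 180986535 to 181018363, plus strand), had 7.72, 10.2, 6.89 and 8.27 CPM in GM47544 libraries, against 2.57, 1.502, 2.37 and 1.15 CPM in pLKO.1 libraries. The groups were apart for both genes, and the log2 fold change of Col20a1 was 2.14 ± 0.240 (SE, edgeR adjusted p = 1.20e-05). Col9a3, the alpha 3 chain of type IX collagen (chromosome 2, 180597790 to 180622189, plus strand), had 1.72, 1.16, 1.92 and 1.34 CPM in GM47544 libraries, against 0.619, 0.697, 0.625 and 0.691 CPM in pLKO.1 libraries. It rests on 81 counts in GM47544 libraries and 39 in pLKO.1 libraries, with a log2 fold change of 1.18 ± 0.288 (SE, edgeR adjusted p = 0.00315). Exons of Col9a3 overlap those of Tcfl5 on the opposite strand over 234 bases, or 6.07% of the exon length, and reads there cannot be assigned if strand was not used. Its partner chains in type IX were nearly absent, with 0 counts of Col9a1 in GM47544 libraries and 1 in pLKO.1 libraries, and no count of Col9a2.

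The fibrillar class held 11 genes, of which 3 were tested, and these 3 rose, where 32.3% of all genes tested did. Col27a1, the chain of type XXVII collagen of cartilage (chromosome 4, 63214004 to 63334991, plus strand), was the most abundant, with 119.6, 118.9, 110.4 and 106.6 CPM in GM47544 libraries, against 79.3, 75.7, 71.8 and 82.7 CPM in pLKO.1 libraries. The groups did not overlap and the log2 fold change was 0.56 ± 0.102 (SE, edgeR adjusted p = 4.28e-04), but it was -0.084 (adjusted p = 0.590) once each library's trend on exon length was removed and 0.086 (adjusted p = 0.267) with the length and GC trends removed. Col11a2, the alpha 2 chain of type XI collagen (chromosome 17, 34039437 to 34066685, plus strand), had 6.09, 5.45, 5.67 and 5.21 CPM in GM47544 libraries, against 2.12, 1.82, 1.94 and 2.92 CPM in pLKO.1 libraries. Its log2 fold change was 1.36 ± 0.195 (SE, edgeR adjusted p = 7.48e-05), and every GM47544 library was above every pLKO.1 library. Col1a1, the alpha 1 chain of type I collagen and the leading product of fibroblasts (chromosome 11, 94936224 to 94953042, plus strand), had only 100 counts in the 4 GM47544 libraries together and 47 in the 4 pLKO.1 libraries. Its level was 1.89, 1.38, 1.92 and 2.31 CPM in GM47544 libraries, against 0.796, 0.965, 0.375 and 1.08 CPM in pLKO.1 libraries. The groups were apart, with a log2 fold change of 1.21 ± 0.324 (SE, edgeR adjusted p = 0.00564). Col1a2, the partner chain of type I, had no count in any library, nor had Col3a1, Col5a2 or Col11a1. No count allows up to 0.0548 CPM over the GM47544 libraries and 0.0509 CPM over the pLKO.1 libraries, the worth of 3 counts in each group, for counting error only.

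The multiplexins parted. Col15a1 (chromosome 4, 47208161 to 47313167, plus strand) had 15.3, 21.4, 22.8 and 20.6 CPM in GM47544 libraries, against 7.34, 6.49, 5.31 and 6.61 CPM in pLKO.1 libraries, and rose with a log2 fold change of 1.64 ± 0.163 (SE, edgeR adjusted p = 4.90e-06). Col18a1, the precursor of endostatin (chromosome 10, 77052178 to 77166548, minus strand), was the most abundant collagen gene, with 872.7, 876.1, 884.6 and 834.9 CPM in GM47544 libraries, against 789.8, 747.0, 588.6 and 935.5 CPM in pLKO.1 libraries. The groups overlapped, because pLKO.1 replicate 4 exceeded every GM47544 library and pLKO.1 replicate 3 was the lowest of all. The log2 fold change of Col18a1 was 0.18 (95% interval -0.0774 to 0.438, edgeR adjusted p = 0.243). It was called higher without pLKO.1 replicate 4, at 0.29 (adjusted p = 0.0485), with library totals alone, at 0.32, and with the GC trend removed, at 0.49 (adjusted p = 3.83e-05). Col7a1, the anchoring fibril collagen that ties epithelial basement membrane to the tissue below (chromosome 9, 108953586 to 108984875, plus strand), had 9.86, 6.89, 7.41 and 6.93 CPM in GM47544 libraries, against 3.10, 2.41, 1.81 and 2.23 CPM in pLKO.1 libraries. The groups were apart and Col7a1 rose by 1.71 ± 0.205 on the log2 scale (SE, edgeR adjusted p = 1.99e-05).

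Of the 6 basement membrane genes, 5 were tested. Col4a4 fell, where 32.1% of all genes tested did, and the other 4 tested basement membrane genes were not called. The genes lie in head-to-head pairs, Col4a1 with Col4a2, Col4a3 with Col4a4 and Col4a5 with Col4a6, and the starts of the first pair are shown because its promoter windows share 78 bases, together with the start of Col4a4, the member that fell, and of Col6a1, the most abundant member that rose at least 2-fold. Each RefSeq window (GRCm38.p6) runs from 250 bases before to 50 bases after a gene start, 300 bases in all, at chr8:11312777-11313076 on the minus strand for Col4a1, chr8:11312555-11312854 on the plus strand for Col4a2, chr1:82586800-82587099 on the minus strand for Col4a4 and chr10:76725995-76726294 on the minus strand for Col6a1. Capitals mark matches to promoter motifs searched on both strands, so that a match on the opposite strand appears as its reverse complement. The GC box was searched as GGGCGG, known as a site of the factor Sp1. The CCAAT box was searched by the letters of its name. The TATA box, known to place the start of transcription, was searched as TATAAA.
Col4a1: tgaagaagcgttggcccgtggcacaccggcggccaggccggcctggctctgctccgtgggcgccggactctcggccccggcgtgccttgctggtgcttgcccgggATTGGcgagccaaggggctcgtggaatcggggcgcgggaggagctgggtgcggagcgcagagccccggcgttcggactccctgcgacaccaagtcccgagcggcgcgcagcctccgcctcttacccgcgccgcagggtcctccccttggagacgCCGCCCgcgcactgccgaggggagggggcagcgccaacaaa
Col4a2: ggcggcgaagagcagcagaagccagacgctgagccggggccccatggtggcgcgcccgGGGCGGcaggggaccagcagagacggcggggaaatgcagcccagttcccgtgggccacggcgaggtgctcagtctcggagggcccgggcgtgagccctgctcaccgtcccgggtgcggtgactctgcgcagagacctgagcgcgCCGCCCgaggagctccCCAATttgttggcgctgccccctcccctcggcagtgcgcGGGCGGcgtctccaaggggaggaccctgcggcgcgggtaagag
Col4a4: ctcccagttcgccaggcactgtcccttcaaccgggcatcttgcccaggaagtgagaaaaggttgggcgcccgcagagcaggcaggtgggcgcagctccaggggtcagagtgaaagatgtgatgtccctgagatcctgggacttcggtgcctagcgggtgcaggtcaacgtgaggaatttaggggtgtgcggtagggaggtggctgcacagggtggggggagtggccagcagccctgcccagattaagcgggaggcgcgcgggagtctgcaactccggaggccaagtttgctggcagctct
Col6a1: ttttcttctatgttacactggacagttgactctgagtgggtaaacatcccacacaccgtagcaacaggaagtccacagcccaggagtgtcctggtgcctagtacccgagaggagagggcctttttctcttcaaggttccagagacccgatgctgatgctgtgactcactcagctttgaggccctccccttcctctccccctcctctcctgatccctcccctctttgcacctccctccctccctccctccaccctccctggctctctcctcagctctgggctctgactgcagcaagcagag

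A window was found for 35 of the 44 collagen genes, 13 of them tested. The Col4a1 window held 1 GC box, which is also 1 of the 3 in the Col4a2 window (chromosome 8, 11312812 to 11312817), and each of these windows held 1 CCAAT box of its own. None of these letters occurred in the windows of Col4a4 and Col6a1. Over the 38 windows of collagen genes, 23 held a GC box, 13 a CCAAT box and 5 a TATA box, where 35.7%, 37.4% and 13.6% of 32851 mouse windows did. A match describes letters and not a bound site.

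Col4a1 and Col4a2 encode the chains of the common type IV network. Col4a1 (chromosome 8, 11198423 to 11312826, minus strand) had 306.8, 310.5, 324.1 and 318.3 CPM in GM47544 libraries, against 315.6, 295.6, 247.2 and 336.8 CPM in pLKO.1 libraries. The groups overlapped, with a log2 fold change of 0.076 (95% interval -0.145 to 0.297, edgeR adjusted p = 0.570). Col4a2 (chromosome 8, 11312805 to 11449287, plus strand) had 219.5, 211.4, 217.3 and 203.3 CPM in GM47544 libraries, against 262.2, 240.9, 200.3 and 303.3 CPM in pLKO.1 libraries. The pLKO.1 libraries spread widely and only replicate 3 of them lay below the GM47544 libraries. The log2 fold change of Col4a2 was -0.24 (95% interval -0.488 to 0.00577, edgeR adjusted p = 0.109), and without pLKO.1 replicate 3 it was called lower at -0.36 (adjusted p = 6.52e-04). Col4a5 (chromosome X, 141475385 to 141689234, plus strand) had 92.9, 78.8, 75.9 and 75.8 CPM in GM47544 libraries, against 81.9, 86.7, 82.9 and 86.2 CPM in pLKO.1 libraries. GM47544 replicate 1 was the highest of the 8 and the other GM47544 libraries were the lowest, with a log2 fold change of -0.063 (95% interval -0.271 to 0.145, edgeR adjusted p = 0.619).

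Col4a3 and Col4a4 encode chains of the network of kidney and lung basement membranes, in which they join with the product of Col4a5. Col4a4 (chromosome 1, 82448423 to 82586849, minus strand) had 1.29, 1.27, 1.22 and 0.819 CPM in GM47544 libraries, against 3.01, 2.31, 2.94 and 3.00 CPM in pLKO.1 libraries. The groups were apart on 63 counts in GM47544 libraries and 163 in pLKO.1 libraries, and Col4a4 fell by 1.27 ± 0.236 on the log2 scale (SE, edgeR adjusted p = 4.77e-04). Col4a3 (chromosome 1, 82586921 to 82722059, plus strand), its neighbour 72 bases away, had 2.23, 2.37, 2.96 and 1.94 CPM in GM47544 libraries, against 3.54, 1.98, 3.06 and 1.92 CPM in pLKO.1 libraries. Those groups overlapped, with a log2 fold change of -0.13 (95% interval -0.630 to 0.363, edgeR adjusted p = 0.659). Col4a6 missed the filter with 57 counts in GM47544 libraries and 32 in pLKO.1 libraries, a ratio of 1.92 after scaling (95% exact interval 1.22 to 3.06, counting error only).

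**Figure D2:**
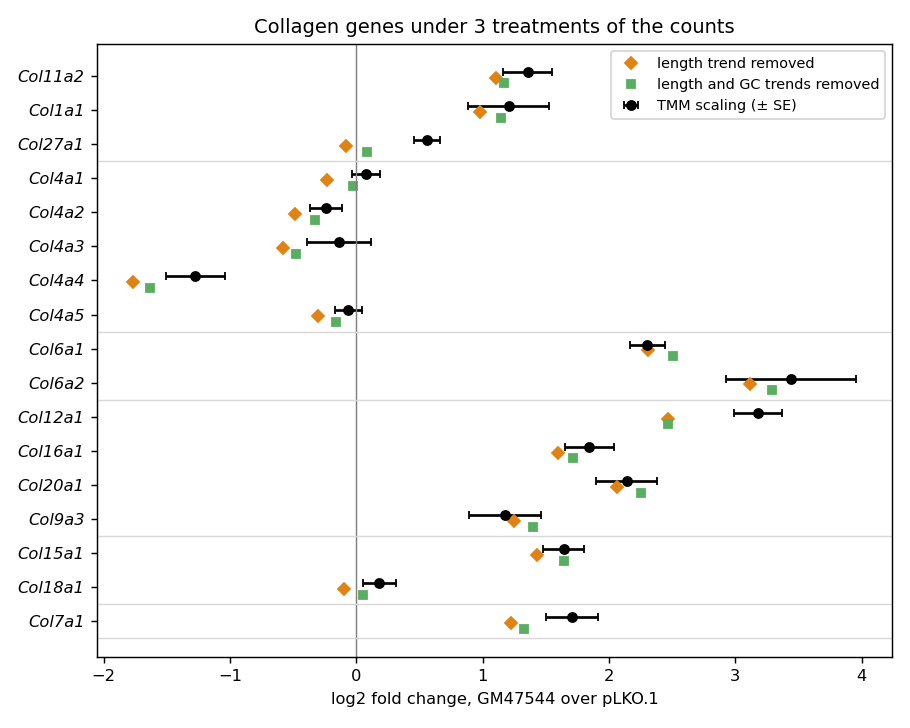
Log2 fold change of the 17 tested collagen genes, GM47544 over pLKO.1, with standard errors, from edgeR (black), beside the values with the trend on exon length removed (orange) and with the length and GC trends removed (green). Col6a2 and Col12a1 lie above 3, Col4a4 lies at -1.27, and Col27a1 moves from 0.56 to -0.084 when the length trend is removed.

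Within the pairs of neighbouring chain genes the balance was compared as a log2 ratio of counts in each library, with a pseudocount of 0.5 counts, for 4 pairs and with p-values adjusted over them. The log2 ratio of Col4a1 to Col4a2 was 0.565 ± 0.0674 in GM47544 libraries and 0.254 ± 0.0707 in pLKO.1 libraries (SD, n = 4 each), a difference of 0.311 (exact two-sided permutation p = 0.0286, adjusted 0.0571). For Col4a3 to Col4a4 it was 1.03 ± 0.234 in GM47544 libraries and -0.139 ± 0.376 in pLKO.1 libraries (SD, n = 4 each), a difference of 1.17 (exact two-sided permutation p = 0.0286, adjusted 0.0571). Both ratios were higher in all 4 GM47544 libraries than in any pLKO.1 library, at the smallest p that 4 against 4 libraries allow, and neither passed after adjustment. With only these pairs at that floor, their adjusted p could not be below 0.0571, so the adjustment cannot decide here. Col4a5 to Col4a6 gave 6.30 ± 0.628 in GM47544 libraries and 7.19 ± 0.290 in pLKO.1 libraries (SD, n = 4 each), a difference of -0.887 (exact two-sided permutation p = 0.0571, adjusted 0.0762). Col6a1 to Col6a2 gave 4.29 ± 0.511 in GM47544 libraries and 5.46 ± 1.28 in pLKO.1 libraries (SD, n = 4 each), a difference of -1.16 that lay within the spread of the libraries (exact two-sided permutation p = 0.114). The highest pLKO.1 ratio, 7.35 in replicate 4, came from 0 counts of Col6a2 there and so depends on the pseudocount. The other pLKO.1 ratios were 4.66 to 5.15. Without GM47544 replicate 1, the type IV pairs differed by 0.338, 1.25 and -1.12, each with an adjusted p of 0.0381. All of them then lay at the smallest p possible. The shared value follows from how many pairs lie there and does not measure their strength. No other library moved these calls when left out. The calls of Col4a1 to Col4a2 and Col4a3 to Col4a4 could move only if a further pair also reached the smallest p. Their staying the same thus does not measure stability. Col4a1 and Col4a2 overlap by 22 exon bases on opposite strands, and reads there cannot be assigned if strand was not used. The same holds for Col4a3, whose exons overlap those of C430014B12Rik on the opposite strand over 563 bases, or 5.65% of the exon length.

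**Figure D3:**
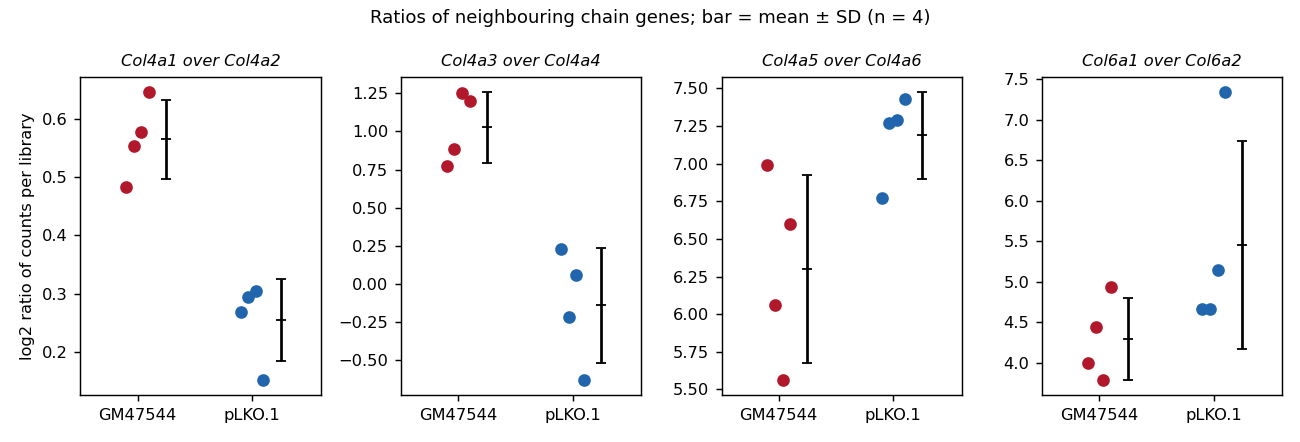
Log2 ratio of counts between neighbouring collagen chain genes in each of the 4 GM47544 and 4 pLKO.1 libraries, 1 point per library, with the group mean ± SD beside the points. The groups are apart for Col4a1 over Col4a2 and Col4a3 over Col4a4, and they overlap for Col4a5 over Col4a6 and Col6a1 over Col6a2.

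Levels of different collagen genes are comparable only per length. Per kilobase of annotated exon, Col18a1 led with 123.5 ± 3.14 CPM in GM47544 libraries and 109.0 ± 20.3 CPM in pLKO.1 libraries (SD, n = 4 each). Col4a1 followed with 42.2 ± 1.04 CPM per kilobase in GM47544 libraries and 40.0 ± 5.13 in pLKO.1 libraries, and Col4a2 with 32.2 ± 1.09 in GM47544 libraries and 38.0 ± 6.49 in pLKO.1 libraries (SD, n = 4 each). In GM47544 libraries these neighbours in the order were apart, while in pLKO.1 libraries Col4a1 and Col4a2 lay within their spread. Col4a5 had 12.03 ± 1.21 CPM per kilobase in GM47544 libraries and 12.6 ± 0.352 in pLKO.1 libraries (SD, n = 4 each). The collagen genes that rose at least 2-fold stayed low on this scale: Col6a1 had 6.19 in GM47544 libraries and 1.26 in pLKO.1 libraries, Col12a1 had 1.80 in GM47544 libraries and 0.200 in pLKO.1 libraries, and Col1a1 had 0.285 in GM47544 libraries and 0.122 in pLKO.1 libraries. The order of the whole set began with types XVIII and IV in both groups.

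All 44 collagen genes together took 0.181%, 0.180%, 0.183% and 0.174% of the counts in GM47544 libraries, against 0.145%, 0.146%, 0.124% and 0.163% in pLKO.1 libraries. On these library totals the share was higher in each GM47544 library, with means of 0.180% ± 0.00374 in GM47544 and 0.144% ± 0.0160 in pLKO.1 libraries (SD, n = 4 each) and a difference of 0.0354 percentage points. Over the scaled library sizes behind the CPM values, the shares were 0.173%, 0.172%, 0.175% and 0.167% in GM47544 libraries, against 0.157%, 0.148%, 0.122% and 0.178% in pLKO.1 libraries. On that scale the groups overlapped, because pLKO.1 replicate 4 lay above every GM47544 library, and the difference in means was 0.0204 points, within the pLKO.1 SD of 0.0231. On library totals without Col18a1, the most abundant member, the shares were 0.0890% ± 0.00146 in GM47544 and 0.0714% ± 0.00541 in pLKO.1 libraries (SD, n = 4 each), a difference of 0.0176 points, about as wide as that from Col18a1 alone. Multiplexins gave 0.0927% in GM47544 and 0.0734% in pLKO.1 libraries, basement membrane genes 0.0641% in GM47544 and 0.0611% in pLKO.1 libraries, and fibrillar genes 0.0127% in GM47544 and 0.00772% in pLKO.1 libraries. FACIT genes gave 0.00612% in GM47544 and 0.00116% in pLKO.1 libraries. The classes with the largest fold changes thus gave a small part of the collagen counts. These shares are descriptions and carry no test.

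**Figure D4:**
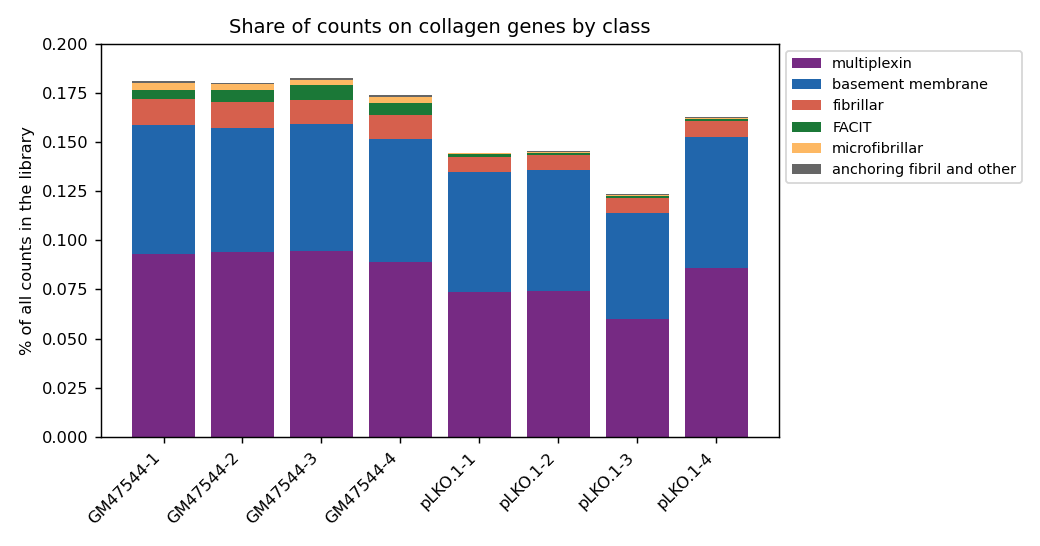
Share of all counts (unscaled library totals) taken by collagen genes in each library, in percent, stacked by structural class, GM47544 libraries before pLKO.1 libraries. Multiplexins and basement membrane genes make up most of each bar, and the GM47544 bars reach 0.174% to 0.183%, against 0.124% to 0.163% in pLKO.1 libraries.

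The 27 collagen genes that were not tested had summed counts between 0 and 89, and 13 of the 20 with any count had at most 10. Col28a1, a relative of type VI collagen, had 43 counts in GM47544 libraries and 3 in pLKO.1 libraries, a ratio of 15.5 after scaling (95% exact interval 4.95 to 77.9). Col22a1, a FACIT gene of tissue junctions, had 3 counts in GM47544 libraries and 33 in pLKO.1 libraries, a ratio of 0.098 (95% exact interval 0.0192 to 0.312). Both passed in the edgeR fit with no filter, at log2 fold changes of 3.69 (adjusted p = 1.68e-04) and -3.18 (adjusted p = 0.00101). Col2a1 of cartilage had 24 counts in GM47544 libraries and 14 in pLKO.1 libraries, a ratio of 1.85 with an interval that includes 1 (95% exact interval 0.918 to 3.86). Fibrillar Col5a1 had 1 count in GM47544 and 9 in pLKO.1 libraries, Col5a3 had 5 in GM47544 and 1 in pLKO.1 libraries, and Col24a1 had 0 in GM47544 and 5 in pLKO.1 libraries. FACIT Col14a1 had 3 counts in GM47544 and 4 in pLKO.1 libraries, and Col19a1 had 2 in GM47544 and 1 in pLKO.1 libraries. Counts this low separate few genes from each other. The transmembrane collagens were at the same low level, with 6 counts of Col17a1 in GM47544 and 1 in pLKO.1 libraries, 6 of Col23a1 in each group, 3 of Col25a1 in GM47544 and 4 in pLKO.1 libraries, and none of Col13a1. Of the network-forming collagens, Col8a1 had 11 counts in GM47544 and 4 in pLKO.1 libraries, Col8a2 had 1 in GM47544 and 0 in pLKO.1 libraries, and Col10a1 had 7 in GM47544 and 4 in pLKO.1 libraries. Col26a1 had 0 counts in GM47544 and 3 in pLKO.1 libraries.

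Gene length moved with the calls across all genes. The tested collagen genes had a median exon length of 6874 bases, against 4463 over all genes tested. Among the longest genes, 6847 bases and over, 56.1% of all genes rose and 5 of 9 collagen genes did, a share close to that of all genes. Between 4464 and 6845 bases, 35.1% of all genes rose, with a median log2 fold change of 0.105, and 4 of 6 collagen genes rose, with a median of 1.42. Both collagen genes from 2837 to 4463 bases rose, where 23.2% of all genes did. With the length trend removed, 10 collagen genes rose and 3 fell, with Col6a1 at 2.31, Col12a1 at 2.47, Col6a2 at 3.12 and Col4a4 at -1.77 on the log2 scale. Col27a1 lost its call, while Col4a2, at -0.49, and Col4a5, at -0.31, were called lower. The part of gene length in the changes was not tested further.

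Genes that make, secrete, process, bind or break down collagen were followed in 9 lists of 126 genes, 83 of them tested. Of these, 34 rose and 18 fell in GM47544 libraries, beside 32.3% and 32.1% of all genes tested, with a median log2 fold change of 0.23 against 0.000406. Without pLKO.1 replicate 3, 40 rose and 27 fell, where 38.7% of all genes tested were called in each direction. The shares of 32.3% higher and 32.1% lower also stand beside the count of each list and marker set below. Of 15 genes for chain modification, 10 were tested, 1 rose and 5 fell. P4ha2, a catalytic subunit of prolyl 4-hydroxylase, fell to 55.6 ± 6.06 CPM in GM47544 libraries, against 88.0 ± 13.1 CPM in pLKO.1 libraries (SD, n = 4 each, log2 fold change -0.66, edgeR adjusted p = 8.33e-04). The lysyl hydroxylase genes Plod1 and Plod3 fell with log2 fold changes of -0.56 and -0.52. P4ha1, the sister subunit, was called higher at 0.42, a call that was lost without any 1 of GM47544 replicates 3 and 4 and pLKO.1 replicates 1, 2 and 4 (log2 0.35 to 0.40). P4hb, the shared subunit, was at -0.25 (edgeR adjusted p = 0.0715) and was called lower without pLKO.1 replicate 3, at -0.35.

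Of 16 chaperone and export genes, 15 were tested, 5 rose and 1 fell, beside 32.3% and 32.1% of all genes tested. Serpinh1, the collagen chaperone HSP47, had 512.6 ± 28.7 CPM in GM47544 libraries and 541.5 ± 119.5 CPM in pLKO.1 libraries (SD, n = 4 each, log2 fold change -0.079, edgeR adjusted p = 0.654). Its sign changed between scalings, and it was called lower without pLKO.1 replicate 3, at -0.23. Creb3l1, a transcription factor known to drive collagen genes in bone-forming cells, rose to 7.59 ± 1.18 CPM in GM47544 libraries, against 0.840 ± 0.381 CPM in pLKO.1 libraries (SD, n = 4 each, log2 fold change 3.22, edgeR adjusted p = 1.67e-06). Fkbp14, a folding enzyme, rose by 0.94 and Mia2, an export receptor, by 0.68 on the log2 scale, though Mia2 was at 0.17 and not called with the length trend removed. Sec13, a coat protein of export vesicles, fell with a log2 fold change of -0.996.

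Among 11 propeptide-processing genes, 5 were tested, 1 rose and 2 fell, beside 32.3% and 32.1% of all genes tested. Mep1a, a meprin subunit, rose by 1.08 on the log2 scale, and Furin, a proprotein convertase, fell with -0.65. Bmp1, the procollagen C-proteinase, was called lower at -0.33, but the call was lost without any 1 library other than pLKO.1 replicate 3 (log2 -0.35 to -0.25). Of 7 cross-linking genes, 4 were tested, 2 rose and 1 fell: Loxl4 fell with a log2 fold change of -0.80 and Loxl3 rose by 0.76, both lysyl oxidase relatives. Tgm2, a transglutaminase, was called higher at 0.41, and the call was lost without GM47544 replicate 3 or 4 or pLKO.1 replicate 2 (log2 0.37 to 0.40). Lox itself, the founding lysyl oxidase, had no count in any library.

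Among 16 degradation genes, 6 were tested, 2 rose and 3 fell, beside 32.3% and 32.1% of all genes tested. Mrc2, an endocytic collagen receptor, rose to 1.54 ± 0.387 CPM in GM47544 libraries, against 0.200 ± 0.0625 CPM in pLKO.1 libraries (SD, n = 4 each, log2 fold change 2.86, edgeR adjusted p = 4.04e-05). Mmp14, a membrane-bound collagenase, was called higher at 0.26, a call lost without any GM47544 library or without pLKO.1 replicate 1 or 2 (log2 0.24 to 0.26). Pepd, the enzyme that splits proline dipeptides, fell with a log2 fold change of -0.91, and Timp1, an inhibitor of matrix metalloproteinases, fell with -0.86 but was at -0.026 with the length trend removed. Mmp13, a collagenase, was called lower at -0.93 and lost the call without GM47544 replicate 1 or 2 or pLKO.1 replicate 1 (log2 -0.82 to -0.81). Of 14 receptor genes, 10 were tested, 5 rose and 2 fell. Itga1, an integrin subunit that binds type IV collagen, rose to 716.3 ± 33.7 CPM in GM47544 libraries, against 260.6 ± 79.6 CPM in pLKO.1 libraries (SD, n = 4 each, log2 fold change 1.46, edgeR adjusted p = 1.81e-05). The log2 fold change of Itga1 was 0.68 with the length trend removed and 0.42 with the length and GC trends removed, still called higher. The collagen-binding receptors Antxr1 and Adgrg1 rose by 2.68 and 1.21 on the log2 scale. The discoidin domain receptors, which are collagen-binding kinases, fell, with log2 fold changes of -1.51 for Ddr2 and -0.43 for Ddr1. The call of Ddr1 was lost with library totals alone (log2 fold change -0.30) and with the GC trend removed (-0.12, adjusted p = 0.0799).

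Of 17 fibril partners, 7 were tested, of which 5 rose and the other 2 were not called, where 32.3% of all genes tested rose. Fn1, fibronectin, rose to 373.5 ± 29.1 CPM in GM47544 libraries, against 141.8 ± 16.9 CPM in pLKO.1 libraries (SD, n = 4 each, log2 fold change 1.40, edgeR adjusted p = 1.55e-06). The small proteoglycan genes Fmod, with 154 counts in GM47544 and 3 in pLKO.1 libraries (ratio 55.3, 95% exact interval 18.6 to 271), and Bgn, with 136 in GM47544 and 9 in pLKO.1 libraries, also rose. Low genes such as these could pass the filter through the group in which they were high, so list counts describe the tested genes only. Of 10 basement membrane partners, 7 were tested, 4 rose and 1 fell. The laminin chain genes Lamb1 and Lamb2 rose by 2.62 and 0.53 on the log2 scale. Lama5 was called higher at 0.40 and was at -0.17 with the length trend removed. Lamc1 was called lower at -0.27, a call lost without GM47544 replicate 2, 3 or 4 or pLKO.1 replicate 1 (log2 -0.28 to -0.23). Of 20 genes of TGF-beta signalling, the pathway that drives collagen genes in fibroblasts, 19 were tested, 9 rose and 3 fell. Tgfbr1, a receptor, rose to 201.6 ± 34.96 CPM in GM47544 libraries, against 49.3 ± 13.8 CPM in pLKO.1 libraries (SD, n = 4 each, log2 fold change 2.03, edgeR adjusted p = 3.26e-06). The ligand gene Tgfb3 rose by 1.31 and Smad3, a transducer, by 0.98 on the log2 scale. The co-receptor gene Eng and the ligand gene Tgfb2 fell, with log2 fold changes of -1.62 and -0.78.

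**Figure D5:**
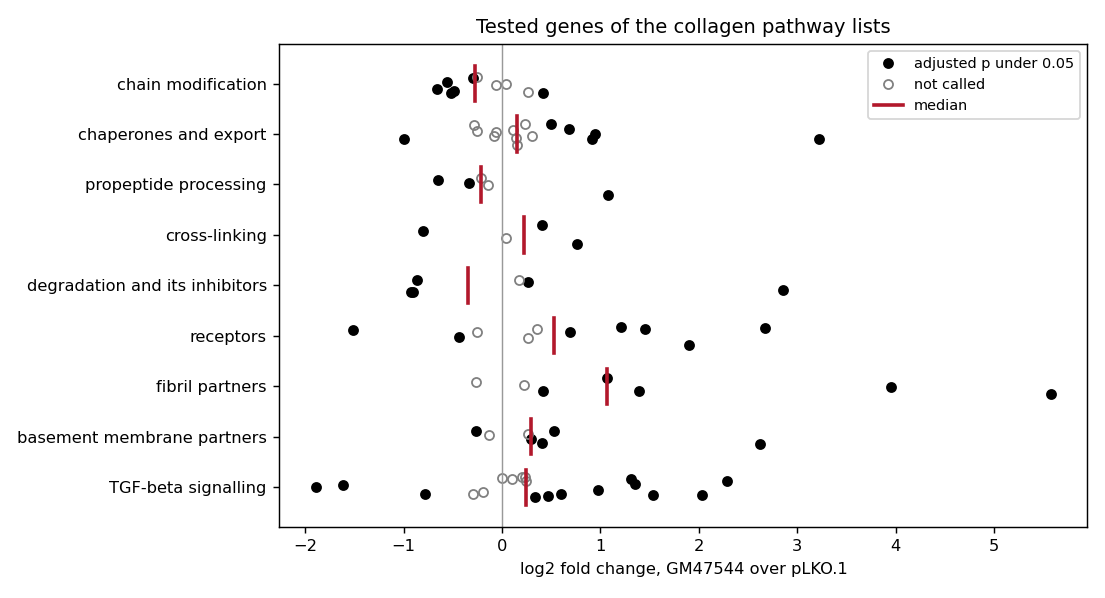
Log2 fold change, GM47544 over pLKO.1, of the 83 tested genes of 9 collagen pathway lists, 1 point per gene, with called genes told apart from those not called. Fibril partners lie mostly above 0, with 5 of 7 called higher, and chain modification genes lie mostly below 0, with 5 of 10 called lower. Of all genes tested, 32.3% were called higher and 32.1% lower.

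Stellate cells and fibroblasts, which make most liver collagen, have defining markers of which several were at or near 0 here. Of 14 stellate cell and fibroblast markers, 3 were tested, of which Des rose (log2 fold change 1.51) and Vim and Tagln were not called, and their summed level was 1340 to 1670 CPM in GM47544 libraries and 1310 to 1470 CPM in pLKO.1 libraries, nearly all of it Vim. Lrat, Lum, Twist1 and Hand2 had no count in any library, and Acta2 had 4 counts in GM47544 and 2 in pLKO.1, Pdgfrb 7 in GM47544 and 3 in pLKO.1, and Dcn 1 in GM47544 and 2 in pLKO.1 libraries. Of 12 hepatocyte markers, 10 were tested, 2 rose and 4 fell, beside 32.3% and 32.1% of all genes tested. The sum of the 12 was 4160 to 4620 CPM in GM47544 libraries and 4400 to 7070 CPM in pLKO.1 libraries. Alb (log2 fold change 3.58) and Fgb (2.89) rose, and Afp (-2.585), Ttr (-2.245), Serpina1a (-1.69) and Krt18 (-0.59) fell. Krt8 and Krt18 made up most of the GM47544 sum, at 2210 and 1240 CPM, against 2170 and 1861 CPM in pLKO.1 libraries. Ttr was at 279 CPM in GM47544 and 1321 CPM in pLKO.1 libraries. Apoa2, with 1 count in each group, and Ahsg, with 0 counts in GM47544 and 3 in pLKO.1 libraries, were near absent. Of 8 cholangiocyte markers, 1 of 5 tested rose and 3 fell (summed level 4480 to 5080 CPM in GM47544 and 2800 to 4150 CPM in pLKO.1 libraries). The higher sum came from Spp1, at 2731 CPM in GM47544 and 943 CPM in pLKO.1 libraries, and without it the sums were 1880 to 2260 CPM in GM47544 and 1830 to 3340 CPM in pLKO.1 libraries. Of 8 endothelial markers, 2 of 3 tested rose and 1 fell (3.77 to 5.23 CPM in GM47544 and 2.44 to 5.52 CPM in pLKO.1 libraries), and of 8 macrophage markers 1 of 3 tested fell (12.9 to 16.5 CPM in GM47544 and 29.9 to 36.5 CPM in pLKO.1 libraries). The lower macrophage sum came mostly from Csf1r, at 10.2 CPM in GM47544 and 27.1 CPM in pLKO.1 libraries. Adgre1 and Clec4f had no count in any library. The part of these marker levels in the collagen changes was not tested.

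The nearest tested genes around the collagen loci did not share 1 direction. Beside Col6a2, Ftcd, a folate enzyme gene 5424 bases away, had 119 counts in GM47544 libraries and 6 in pLKO.1 libraries (log2 fold change 4.29, edgeR adjusted p = 1.75e-05), whereas Pcbp3 on the Col6a1 side was at 0.069 and was not called. Beside Col12a1, Cox7a2, a respiratory chain subunit gene 36530 bases away, fell with a log2 fold change of -1.43. Cox7a2 was at -0.61 with the length trend removed and -0.46 with the length and GC trends removed, still called lower. Cd109, 882738 bases away on the other side of Col12a1, rose by 2.51. Around Col4a1 and Col4a2, Rab20 fell with -0.65, and was at -0.028 and not called with the length trend removed, and Irs2 was at 0.18 and was not called.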

How the data were processed

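RNA of 8 AML-12 libraries, 4 of GM47544 and 4 of pLKO.1, was sequenced after Trizol isolation and NEBNext Ultra library preparation, per the labels' protocols. The deposited counts are unnormalized whole numbers, 1 per symbol and library. Reads went through FastQC, STAR and HTSeq on mm10, per the submitters' processing notes. Tool versions, gene annotation and strand use were not given in the sources used here.

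Coordinates, exon length and GC content came from GENCODE M21 (GRCm38) by symbol (21926 of 21983 matched), and promoter windows came from RefSeq. The test was edgeR's two-sided quasi-likelihood test of GM47544 against pLKO.1 (edgeR 4.0.16 in R 4.3.3), with group alone in the model, trimmed-mean scaling and p-values adjusted by Benjamini-Hochberg over all genes tested. Genes were called under 0.05. The filter (filterByExpr, minimum count 10) kept 11520 of 16281 genes that had a count. The common biological coefficient of variation was 0.15. CPM used the scaled library sizes, and standard errors were the log2 fold change over the root of F. Exact 95% binomial intervals go with ratios of low counts, and a gene at 0 was set against 3 counts per group; both cover counting error only. Library pairs within a group had a chi-square of 2.41 to 102 per gene, so none matched within counting noise. The script was first tested on simulated data with known changes.

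The collagen members, the pathway lists and the marker lists were chosen with earlier results of these data known, and no list was tested as a set. Every tested collagen gene was named, and of each pathway list up to 3 called genes with the smallest p in each direction, with Serpinh1, Lox and P4hb always, and the nearest tested genes of 3 loci. A gene that this rule names is not reported here. Col28a1, Col22a1 and the counts and levels of other markers were added with values known. Alternatives were other scalings, filters, DESeq2 1.42.0, limma 3.58.1 (voom with quality weights), a replicate block, removal of length and GC trends (lowess span 0.3), and leaving out each library; those of the chain ratios, and the share over scaled sizes, were chosen after seeing the data.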

Additional observations from a re-analysis of the deposited data

Results flagged for a closer look

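Each of 114 groups of 4 libraries was searched by Dixon's gap test for a library far from the other 3. Chance alone meets this in about 1 in 20 groups. The groups were those of the tested collagen genes, of the tested pathway genes picked by the naming rule and of the collagen share of counts. The neighbour genes were not searched. The search found 8. Both groups of Col4a4 were among them: GM47544 replicate 4 was low at 0.819 CPM, on few counts, and pLKO.1 replicate 2 was low at 2.31 CPM, and the groups did not overlap with either of them included. Among the pathway genes, Creb3l1 was low in GM47544 replicate 1 at 5.83 CPM, Bgn was low in GM47544 replicate 3 at 2.01 CPM (2.005 before rounding), and Tgfb3 was low in GM47544 replicate 2 at 35.4 CPM. In pLKO.1 libraries, Ddr2 was high in replicate 3 at 45.4 CPM, Smad3 was low in replicate 1 at 114.9 CPM, and Fmod was detected in replicate 2 alone, at 0.161 CPM. The calls of these genes held without any 1 library.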

How the results depend on the processing

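Of 303 values of collagen log2 fold changes under 18 alternatives, 284 kept their direction and side of the threshold, 9 newly passed, 1 no longer passed and 9 changed sign. Each value was counted once, a change of sign first. Among the 9 is Col27a1 with the length trend removed, which also lost its call there (edgeR adjusted p = 0.590). The 11 higher calls held without any 1 library (11 to 13 calls), and Col4a4 stayed lower in all 18. With a minimum count of 30 in the filter, 8 of the 11 stayed called higher. Col1a1, Col6a2 and Col9a3 were not tested there and have no value under that alternative. The number of lower calls was 2 with no filter, 2 with limma-voom, 3 with the length trend removed, 2 with the length and GC trends removed, and 1 to 2 without 1 library. With library totals alone the median of all genes shifted by 0.128 on the log2 scale, and Col4a5 was at 0.065. With the length trend removed, values changed sign for Col18a1 (-0.10), Col27a1 (-0.084), Col4a1 (-0.24), Irs2 (-0.032), Lama5 (-0.17), P4hb (0.0054) and Serpinh1 (0.27). With the GC trend removed they did for Col4a2 (0.060), Col4a5 (0.071), P4hb (0.0091) and Serpinh1 (0.25), and Col4a1 (0.39) and Col18a1 (0.49) were called higher. With both removed they did for Col4a1 (-0.023), P4hb (0.20), Serpinh1 (0.49), Rab20 (0.19) and Timp1 (0.15). Without 1 library, Col4a1 ranged from -0.033 (without pLKO.1 replicate 3) to 0.13, Col4a3 from -0.26 to 0.017 (without pLKO.1 replicate 1), Pcbp3 from -0.015 (without pLKO.1 replicate 3) to 0.17, with -9.1e-05 without GM47544 replicate 3, and Serpinh1 from -0.23 to 0.031 (without pLKO.1 replicate 4). Serpinh1 was at 0.060 with library totals alone. The cause of these changes was not tested, apart from what each alternative removes. The difference in collagen share was 0.0204 points over scaled library sizes (chosen after seeing the data), 0.0176 points without Col18a1 and 0.0286 to 0.0416 points without 1 library. Same-numbered libraries did not deviate together (correlations -0.161 to 0.029), so the numbers are not taken as pairs. With the replicate block, 84 of 90 results stayed on their side, collagen calls were 11 higher and 1 lower, and Bmp1, Lamc1 and Mmp14 lost theirs (adjusted p of 0.0631, 0.0985 and 0.101). Depth limits the untested members, of which 13 had 1 to 10 counts in all 8 libraries together.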

Other observations

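By abundance, the collagen calls are given as a description, with no test of a difference between levels. Of 8 tested collagen genes that averaged under 10 CPM, 6 rose in GM47544 libraries, where 41.5% of all genes at that level did, and all 4 between 10 and 50 CPM rose, where 29.5% of all genes did. Above 50 CPM, 1 of 5 collagen genes rose, Col27a1, where 30.4% of all genes did.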
